A study of Rattus norvegicus with 13 samples.

Results

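The basement membrane genes described here are 3 chains of collagen IV (Col4a1, Col4a2 and Col4a5), 4 laminin chains (Lama4, Lamb1, Lamb2 and Lamc1) and both nidogens (Nid1 and Nid2), followed through a rat bile duct cancer and the cell lines taken from it. They were chosen by gene symbol, with earlier results of these data known. All 9 were measured, among 14217 genes in all, by 13 probe sets, and where a gene had several probe sets the one with the highest mean over the 13 arrays stands for it. The tumours, intrahepatic cholangiocarcinomas of Fischer 344 rats, arose from BDEsp cells, a spontaneously transformed and low-grade malignant form of the rat bile duct line BDE1 inoculated into the bile duct, and 4 were snap-frozen for RNA. A single array was labelled as tumour-derived epithelial cells from co-culture with fibroblastic cells, and another as the fibroblastic cells of such a co-culture. The epithelial cancer line grown alone (clone H10) gave 3 arrays. The fibroblastic line grown alone (clone E4), which is positive for alpha smooth muscle actin, gave 4. The matrix for lines and co-cultures alike was a gel of type I collagen from rat tail. Each line is a single clone from these tumours, fibroblastic cells were plated in co-culture at several densities, and the labels do not give the density behind an array or say whether replicates were separate cultures, so p-values measure the spread between these arrays.

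A basement membrane is the thin sheet of matrix on which epithelia and blood vessels rest and which surrounds muscle, fat and nerve. Collagen IV chains wind into triple helices that join into a network, and the chain pair encoded by Col4a1 and Col4a2 is found in nearly every basement membrane, while Col4a5 belongs to networks of narrower distribution such as that of the kidney glomerulus. Laminins are trimers of an alpha, a beta and a gamma chain, and many are cross-shaped and self-assemble on the cell surface. Nidogens bind both laminin and collagen IV. In carcinomas, cancer cells and the surrounding stroma can both contribute these proteins.

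Col4a1 and Col4a2 lie head to head and are transcribed away from each other, and the stretch between their starts is shown because the results below set the levels of this pair side by side. RefSeq (build GRCr8) places 76 bases between the annotated starts, chr16:84885521-84885596, printed on the plus strand, which is the strand of Col4a1. The capitals mark a GC box, GGGCGG, read on the other strand.
Col4a1 to Col4a2: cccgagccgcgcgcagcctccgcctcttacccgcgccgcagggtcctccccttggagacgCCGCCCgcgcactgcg
Of these bases 78.9% are G or C, against a median of 51.7% over all 300-base promoters of the same source. Promoters (250 bases before to 50 after the start, so that those of Col4a1 and Col4a2 overlap) were found for 7 of the 9 genes, all but Lamb2 and Nid2. GGGCGG occurred on either strand in 6 of these 7, the exception being Lama4, and in 33.1% of 33469 promoters. TATAAA occurred only in Lama4 among them and in 14.2% of all promoters, and CCAAT occurred in Col4a1, Col4a2 and Nid1 and in 37.5% of all promoters. Such matches are descriptions of the letters only.

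All values are log2 expression values that the authors computed by RMA, and a difference of 1 is a doubling. A gene was called at an adjusted p under 0.05 from limma, adjusted over all genes. Tumours 1, 3 and 4 held far more hepatocyte RNA than tumour 2: the mean level of 20 hepatocyte markers was 12.5, 6.23, 11.1 and 12.8 in tumours 1 to 4, against 5.52 to 5.57 on epithelial and 4.66 to 4.93 on fibroblastic arrays. Both co-culture arrays held transcripts of both cell types. The array labelled fibroblastic co-culture went against its label: Krt19, a keratin of bile duct epithelium, read 13.21 there and 13.49 on the array labelled epithelial co-culture, against 14.07 ± 0.17 (SD, n = 3) for epithelial and 4.18 ± 0.12 (SD, n = 4) for fibroblastic cells alone. Col1a1, a fibroblast collagen, read 12.61 on the array labelled epithelial co-culture and 13.04 on the other, against 5.73 ± 0.14 (SD, n = 3) in the epithelial line. Of 12 epithelial markers, 11 were called higher on the array labelled fibroblastic co-culture than in the fibroblastic line, and of 16 fibroblast markers 11 were called higher on the array labelled epithelial co-culture than in the epithelial line. On the arrays labelled epithelial and fibroblastic co-culture Cdh1 read 11.85 and 12.03, Epcam 12.47 and 11.96, Postn 10.83 and 10.26, and Acta2 7.56 and 9.06. The values of these co-culture arrays correlated at r = 0.983 across genes, which are not independent replicates. Every comparison of a co-culture array with a line therefore compares RNA of both cell types with that of a line grown alone. For the 9 genes each array is given against both lines below. Genes of the other lists are tested only against the line of the array's label, so those differences also hold differences between the lines. Each label had 1 co-culture array, whose variation was taken to equal that of the replicated groups.

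The epithelial line carried less of all 9 genes than the fibroblastic line. All 9 were called lower, against 16.6% of all genes, and the arrays of the lines did not overlap for any of them, against 45.3% of all genes. The gap in measured values was widest for Nid1 (450-fold) and narrowest for Lamb2 (1.65-fold). No detection calls were used here, and Nid1 and Col4a5 read about as low on the epithelial arrays as Krt19 did in the fibroblastic line, so folds against those values are ratios of measured signal and not exact sizes. The median difference over the 9 genes was -4.28, against 0.11 over all genes. Since the 9 were chosen with earlier results of these data known, these counts do not stand for basement membrane genes at large. Of 24 further basement membrane components, 5 were called higher and 5 lower in the same comparison. In the tumours, 6 of the 9 genes were called against the epithelial line, against 52.1% of all genes. Of these, Col4a1, Col4a2, Lama4 and Nid1 were higher (18.9% of all genes were) and Lamb1 and Lamb2 were lower (33.2% of all genes were). All 9 were called below the fibroblastic line in the tumours, against 33.5% of all genes, though Lamc1 and Nid1 by only one of their probe sets. Col4a1, Col4a2, Lama4 and Nid1 thus lay between the lines, called in both comparisons, as did 3.78% of all genes. For Lama4 and Nid1 this position rests on the brighter probe set, since the second one of each did not call the tumours above the epithelial line. These tumour backgrounds depend on scaling: 2685 genes were called higher and 4722 lower than in the epithelial line, but 3751 and 3431 after each array was centred on its median. Against the fibroblastic line the counts were 3888 higher and 4764 lower, but 5095 and 3821 after centring. No direction of the 9 genes reversed under centring or a further quantile normalization.

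**Figure D1:**
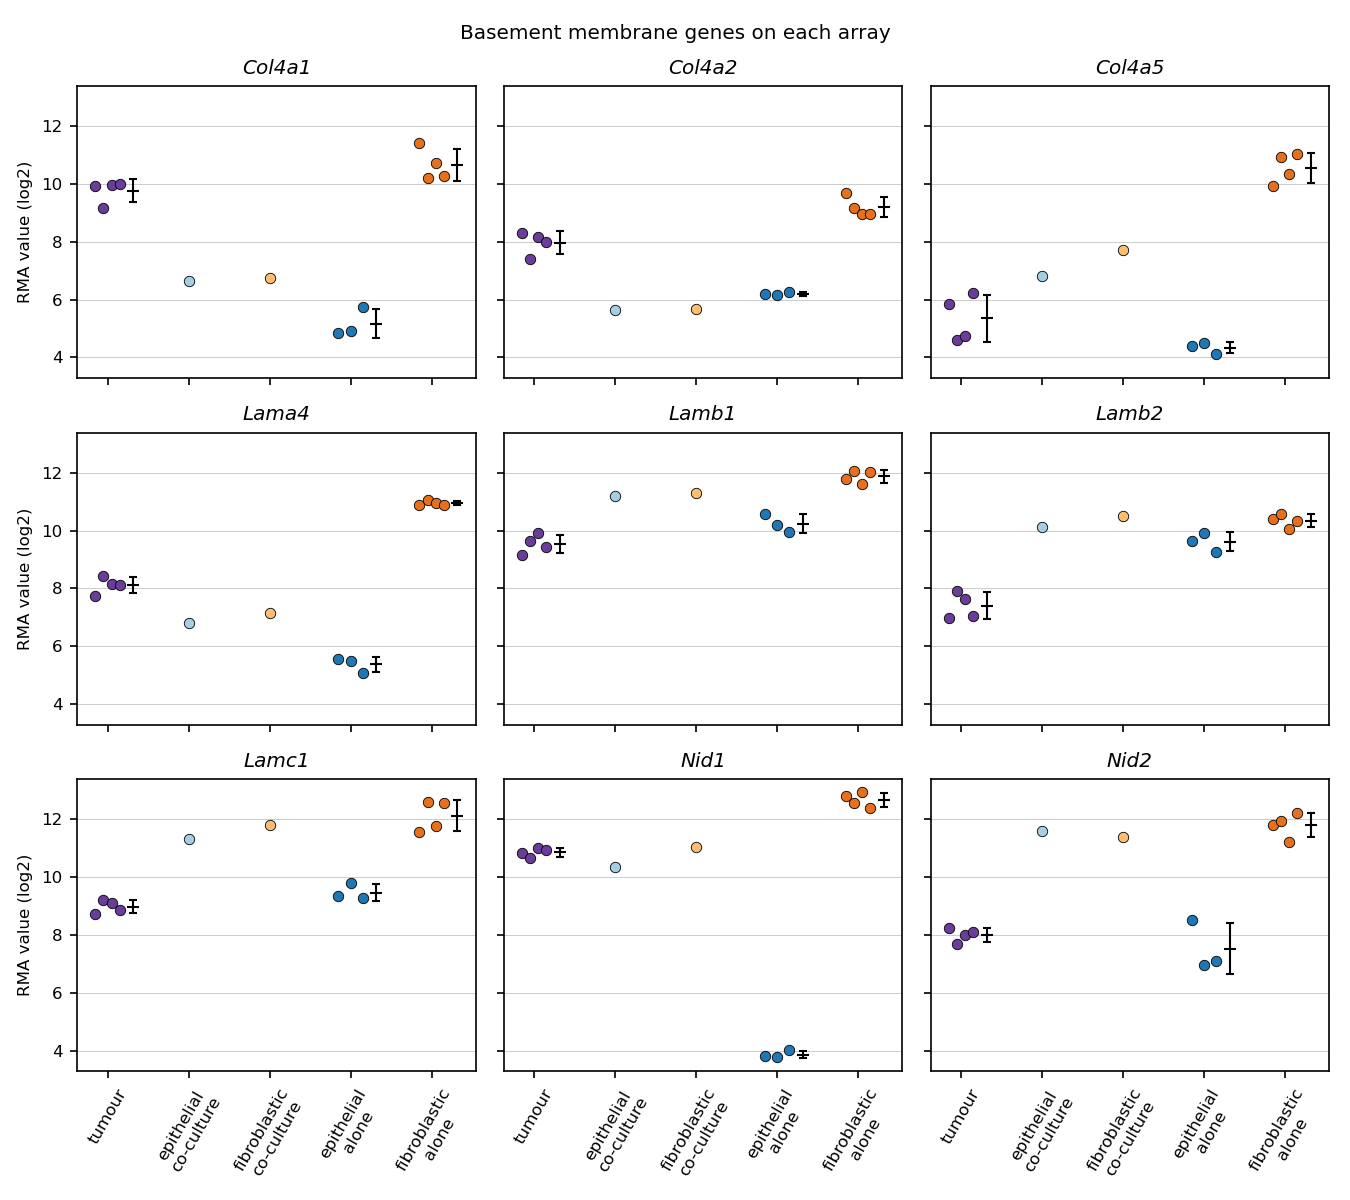
Log2 RMA value (y axis) of each of the 9 genes on every array, grouped as tumour, array labelled epithelial co-culture, array labelled fibroblastic co-culture, epithelial line and fibroblastic line; points are arrays and the bars beside them are the mean ± SD of replicated groups. The fibroblastic arrays lie above the epithelial arrays in every panel, and the tumours lie close to the fibroblastic line for Col4a1 but below both lines for Lamb2.

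Col4a1 and Col4a2, the chains of the ubiquitous collagen IV network, were high in the tumours and in the fibroblastic line and low in the epithelial line. Col4a1 read 9.94, 9.17, 9.97 and 10.003 in the 4 tumours, against 4.83, 4.93 and 5.75 on the epithelial arrays and 11.43, 10.22, 10.72 and 10.29 on the fibroblastic arrays. Col4a2 read 8.32, 7.41, 8.16 and 8.00 in the tumours, against 6.19, 6.15 and 6.26 on the epithelial arrays and 9.70, 9.17, 8.98 and 8.97 on the fibroblastic arrays. No array of one group reached into another for either gene, and tumour 2 was the lowest tumour for both. The epithelial line lay below the fibroblastic line, with differences of -5.49 for Col4a1 (SE 0.35, limma adjusted p = 9.51e-06) and -3.01 for Col4a2 (SE 0.20, limma adjusted p = 1.33e-05). The tumours stood 24.2-fold above the epithelial line for Col4a1 (log2 4.60, SE 0.34, limma adjusted p = 3.66e-06) and 3.42-fold for Col4a2 (log2 1.77, SE 0.23, limma adjusted p = 0.000171). Against the fibroblastic line the tumour differences were -0.90 for Col4a1 (SE 0.31, limma adjusted p = 0.0288) and -1.23 for Col4a2 (SE 0.21, limma adjusted p = 0.000612). The small tumour-to-fibroblastic difference of Col4a1 was no longer called under quantile normalization (limma adjusted p = 0.109), under centring (0.0726), or without tumour 2 (0.0780), fibroblastic array 1 (0.0737) or fibroblastic array 3 (0.0560). The second Col4a1 probe set gave like levels, 9.17 to 10.03 in the tumours, against 4.58 to 5.42 on epithelial and 10.14 to 11.60 on fibroblastic arrays. In these bulk samples, fewer cells of a type and less RNA per cell cannot be told apart.

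Col4a5, a chain of the more restricted collagen IV networks, had tumours much farther below the fibroblastic line than the other collagen IV chains. Its tumour difference from the epithelial line was smaller than that of Col4a1 (4.60) and, by less, that of Col4a2 (1.77). It read 5.84, 4.59, 4.74 and 6.24 in the tumours, against 4.40, 4.51 and 4.12 on the epithelial arrays and 9.94, 10.93, 10.34 and 11.06 on the fibroblastic arrays. The tumours thus stayed near the epithelial line, with tumours 2 and 3 just above its highest array, and far from the fibroblastic line. The epithelial line measured 74.8-fold below the fibroblastic line, from values near the low end of the arrays (log2 -6.22, SE 0.28, limma adjusted p = 1.55e-06). The tumours measured 37.2-fold below the fibroblastic line (log2 -5.22, SE 0.38, limma adjusted p = 1.20e-06). Their difference from the epithelial line, 1.01 (95% interval 0.11 to 1.91), was not called (limma adjusted p = 0.0589). It was called after centring (limma adjusted p = 0.0274) and without tumour 2 (0.0229) or tumour 3 (0.0374).

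Lama4, the alpha chain of laminins in vessel walls and other mesenchymal basement membranes, held the narrowest spread of the 9 genes in the fibroblastic line. It read 7.75, 8.44, 8.16 and 8.11 in the tumours, against 5.56, 5.48 and 5.06 on the epithelial arrays and 10.90, 11.04, 10.96 and 10.90 on the fibroblastic arrays. The 3 groups were cleanly separated, and the tumours lay about midway between the lines on the log2 scale. The epithelial line was 48.0-fold below the fibroblastic line (log2 -5.58, SE 0.16, limma adjusted p = 1.69e-07). The tumours were 6.71-fold above the epithelial line (log2 2.75, SE 0.17, limma adjusted p = 1.24e-06) and 7.15-fold below the fibroblastic line (log2 -2.84, SE 0.16, limma adjusted p = 2.16e-07). The second Lama4 probe set was dim, 4.0 to 4.24 in the tumours, against 3.64 to 4.09 on epithelial and 4.53 to 6.0 on fibroblastic arrays, and did not call the tumours above the epithelial line (difference 0.33, limma adjusted p = 0.386).

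The beta and gamma chains, which pair with several alpha chains, differed less between the lines and were low in the tumours. Lamb1, the more widely used beta chain, read 9.15, 9.65, 9.91 and 9.45 in the tumours, against 10.59, 10.20 and 9.95 on the epithelial arrays and 11.79, 12.08, 11.62 and 12.03 on the fibroblastic arrays. Lamb2, the beta chain known from the glomerulus and the neuromuscular junction, read 6.98, 7.93, 7.65 and 7.06 in the tumours, against 9.65, 9.92 and 9.27 on the epithelial arrays and 10.42, 10.57, 10.04 and 10.32 on the fibroblastic arrays. All 4 tumours lay below every array of both lines for both genes, though for Lamb1 the highest tumour nearly met the lowest epithelial array. The tumours were 1.63-fold below the epithelial line for Lamb1 (log2 -0.71, SE 0.21, limma adjusted p = 0.0163) and 4.62-fold for Lamb2 (log2 -2.21, SE 0.25, limma adjusted p = 7.21e-05). Against the fibroblastic line they were 5.06-fold lower for Lamb1 (log2 -2.34, SE 0.19, limma adjusted p = 3.10e-06) and 7.64-fold lower for Lamb2 (log2 -2.93, SE 0.23, limma adjusted p = 2.16e-06). Lamb1 and Lamb2 were thus the only ones of the 9 called below both lines, a position held by 17.9% of all genes, and none was called above both, a position held by 12% of all genes. The Lamb1 difference from the epithelial line was not called under quantile normalization (-0.39, limma adjusted p = 0.144), under centring (-0.51, 0.0564) or without epithelial array 1 (-0.53, 0.0744).

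Between the lines, epithelial minus fibroblastic, the difference was -1.63 for Lamb1 (SE 0.20, limma adjusted p = 0.000421) and -0.73 for Lamb2 (SE 0.20, limma adjusted p = 0.0233). The Lamb2 difference was the smallest of the 9 and lost its call without epithelial array 1 or 3 or without fibroblastic array 1, 2 or 4, with limma adjusted p of up to 0.0769. Lamc1, the gamma chain of most laminins, read 8.72, 9.23, 9.12 and 8.86 in the tumours, against 9.35, 9.79 and 9.27 on the epithelial arrays and 11.55, 12.60, 11.78 and 12.56 on the fibroblastic arrays. No tumour reached an epithelial array, though the highest tumour and the lowest epithelial array nearly met, and fibroblastic arrays 1 and 3 were lower than 2 and 4. The epithelial line was 6.29-fold below the fibroblastic line (log2 -2.65, SE 0.30, limma adjusted p = 0.000269), and the tumours were 8.82-fold below it (log2 -3.14, SE 0.25, limma adjusted p = 2.31e-06). The tumour difference from the epithelial line was -0.49 (95% interval -1.09 to 0.11, limma adjusted p = 0.152). A second, dimmer Lamc1 probe set gave the opposite direction, 6.96 to 7.41 in the tumours against 5.49 to 6.53 in the epithelial line (difference 1.17, limma adjusted p = 0.00413), so the probe sets of Lamc1 disagree on this order. That probe set did not call the tumours below the fibroblastic line either (difference -0.17, limma adjusted p = 0.575).

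The nidogens, which link laminin to collagen IV, diverged from each other. Nid1 read 10.84, 10.66, 10.999 and 10.96 in the tumours, against 3.80, 3.79 and 4.0 on the epithelial arrays and 12.81, 12.57, 12.94 and 12.39 on the fibroblastic arrays. Nid2 read 8.23, 7.67, 7.99 and 8.10 in the tumours, against 8.53, 6.95 and 7.10 on the epithelial arrays and 11.81, 11.94, 11.23 and 12.24 on the fibroblastic arrays. Nid1 separated all 3 groups with tumours near the fibroblastic line, whereas for Nid2 epithelial array 1 lay above every tumour and the other 2 epithelial arrays lay below. The epithelial line measured 450-fold below the fibroblastic line for Nid1 (log2 -8.81, SE 0.17, limma adjusted p = 3.88e-08) and 19.4-fold for Nid2 (log2 -4.28, SE 0.41, limma adjusted p = 0.000102). The tumours measured 128-fold above the epithelial line for Nid1 (log2 7.0, SE 0.15, limma adjusted p = 7.59e-10), and both Nid1 folds against that line are ratios to a signal near the low end of the arrays. For Nid2 the corresponding difference was 0.47 (95% interval -0.33 to 1.27, limma adjusted p = 0.295), and it was called without epithelial array 1 (0.97, limma adjusted p = 0.0145). Against the fibroblastic line the tumours were 3.51-fold lower for Nid1 (log2 -1.81, SE 0.14, limma adjusted p = 2.05e-06) and 14.0-fold lower for Nid2 (log2 -3.81, SE 0.33, limma adjusted p = 4.85e-06). The second Nid1 probe set read 7.14 to 8.36 on all tumour and line arrays and did not call the lines apart (difference -0.21, limma adjusted p = 0.577), so the Nid1 results rest on its brighter probe set.

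**Figure D2:**
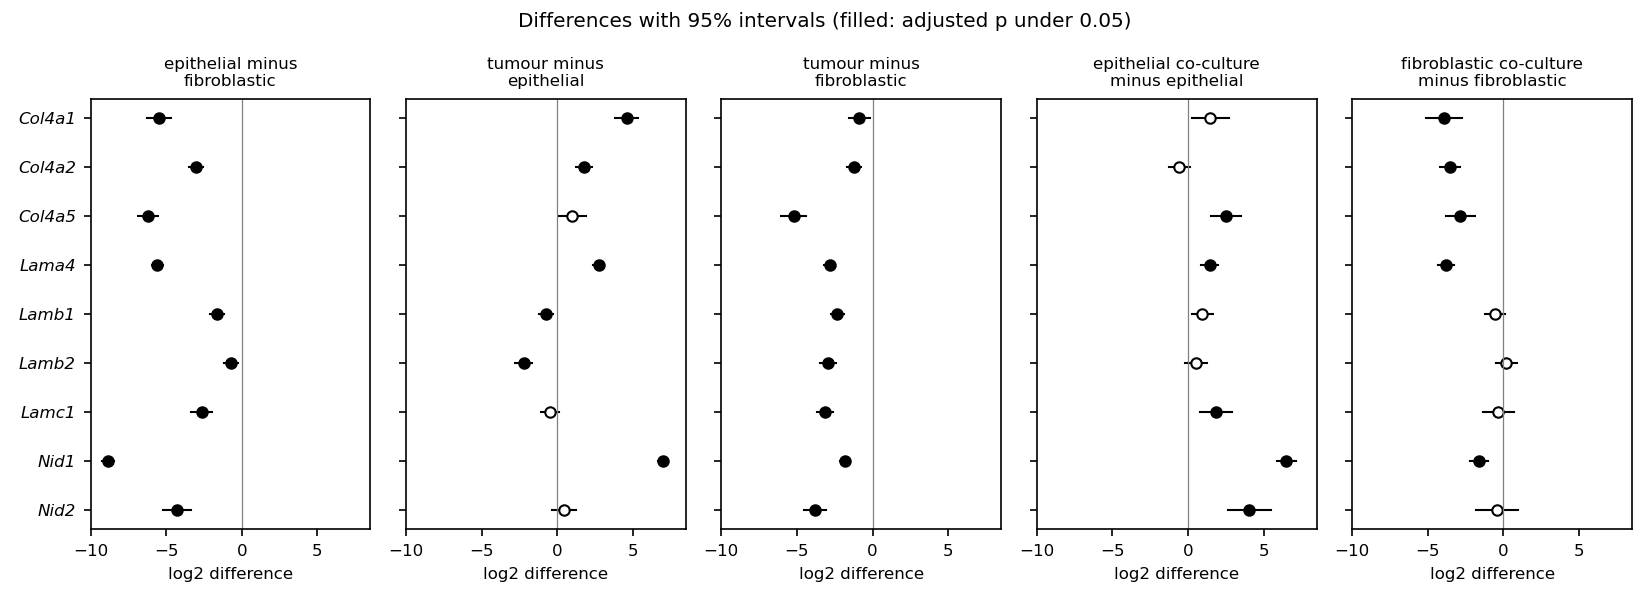
Log2 difference (x axis, bars are 95% intervals) of each of the 9 genes (rows) in 5 comparisons, those of the lines, of the tumours with each line, and of each co-culture array with the line of its label; filled points have an adjusted p under 0.05. All 9 points lie left of 0 for epithelial minus fibroblastic line and for tumour minus fibroblastic line, while tumour minus epithelial line runs between 7.0 for Nid1 and -2.21 for Lamb2.

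Of the 9 genes, 8 did not overlap between tumours and epithelial line (58.3% of all genes did not), Nid2 being the exception, and 9 did not overlap between tumours and fibroblastic line (58.2% of all genes). Markers of other cell types also differed between the tumours and the lines. Beside their counts below, 18.9% of all genes were called above and 33.2% below the epithelial line in the tumours. The shares against the fibroblastic line were 27.3% above and 33.5% below. Endothelial cells, pericytes and hepatic stellate cells make collagen IV, laminin and nidogen in liver. Of 18 endothelial markers, 15 were called above and 1 below the epithelial line in the tumours, and 13 above and 0 below the fibroblastic line. Pecam1, an endothelial adhesion molecule, averaged 7.25 ± 0.33 (SD, n = 4) in the tumours, against 5.58 ± 0.32 (SD, n = 3) on epithelial and 4.68 ± 0.23 (SD, n = 4) on fibroblastic arrays. The log2 of their summed level was 11.19 to 11.76 in the tumours, against 9.56 to 9.69 on epithelial and 9.43 to 10.13 on fibroblastic arrays. Of 14 pericyte and vascular smooth muscle markers, 11 were higher and 0 lower than in the epithelial line, while 3 were higher and 7 lower than in the fibroblastic line, with sums of 11.41 to 11.83 in the tumours, against 9.53 to 9.78 and 13.10 to 13.90 in those lines. Rgs5, a pericyte gene, averaged 9.05 ± 0.67 (SD, n = 4) in the tumours, against 4.55 on epithelial and 4.22 on fibroblastic arrays. Of 12 epithelial markers, 0 were above and 5 below the epithelial line, and 12 were above and 0 below the fibroblastic line. All 16 fibroblast markers were above the epithelial line, and 2 were above and 13 below the fibroblastic line. All 14 macrophage markers were above both lines. Of 20 hepatocyte markers, 19 were called above the epithelial line and 20 above the fibroblastic line, with Alb, the albumin gene, between 7.50 in tumour 2 and 14.51 in the tumour with most. Of 8 Schwann cell markers, 3 were above and 2 below the epithelial line, and 6 above and 1 below the fibroblastic line. The part of these cell types in the tumour results was not tested.

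Tumour 2 alone, the tumour with the lowest hepatocyte markers, stood above the epithelial line for Nid1 (6.79), Col4a1 (3.99), Lama4 (3.07) and Col4a2 (1.21). It stood below that line for Lamb2 (-1.69) and Lamb1 (-0.60). In these fits the lone tumour array was assumed to vary like the other groups, so only the sizes of its differences are given here. Against the fibroblastic line tumour 2 was lower for all 9 genes, from -1.50 for Col4a1 to -5.98 for Col4a5. The fibroblastic arrays also differed in a measure of RNA quality: the 3′ minus 5′ signal of beta-actin was 0.61 to 0.75 in the tumours, 0.96 and 0.85 on the arrays labelled epithelial and fibroblastic co-culture, 0.86 to 1.47 in the epithelial line, and 1.72, 2.65, 1.05 and 2.01 on fibroblastic arrays 1 to 4. The part of this measure in the results was not tested. Without fibroblastic arrays 2 and 4 all 9 genes kept their direction between the lines, and Lamb2 lost its call (-0.62, limma adjusted p = 0.106).

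On both co-culture arrays the collagen IV chains and Lama4 stood far below the fibroblastic line, while Nid2 and the beta and gamma laminin chains stood near it. Col4a1 read 6.64 on the array labelled epithelial co-culture and 6.75 on the array labelled fibroblastic co-culture, and Col4a2 read 5.63 and 5.68 on the same arrays. Lama4 read 6.82 and 7.15 there, and Col4a5 read 6.83 and 7.71. Each of these 8 values lay below every array of the fibroblastic line. Both Col4a2 values lay below every array of the epithelial line as well, but by only -0.57 and -0.52 from its mean, neither called. With 1 array set against so few, such positions carry little weight, and their share of all genes is not given here. On the array labelled fibroblastic co-culture, 5 of the 9 genes were called lower than in the fibroblastic line and 0 higher, against 3.63% and 4.78% of all genes. Its differences were -3.92 for Col4a1 (SE 0.51, limma adjusted p = 0.00291), -3.53 for Col4a2 (SE 0.29, limma adjusted p = 0.000363), -3.81 for Lama4 (SE 0.23, limma adjusted p = 9.36e-05) and -2.86 for Col4a5 (SE 0.41, limma adjusted p = 0.00496). The array labelled epithelial co-culture was also called lower than the fibroblastic line for 5 of the 9 genes, against 5.38% of all genes, with -4.02 for Col4a1 (SE 0.51, limma adjusted p = 0.00228) and -4.14 for Lama4 (SE 0.23, limma adjusted p = 5.07e-05). With the second, dim Lama4 probe set neither Lama4 difference was called, at -1.49 (limma adjusted p = 0.146) on the array labelled fibroblastic co-culture and -1.27 (0.187) on the array labelled epithelial co-culture. The same 4 fibroblastic arrays serve both comparisons.

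The other 5 genes lay nearer to the fibroblastic line. Nid2 read 11.59 on the array labelled epithelial co-culture and 11.38 on the array labelled fibroblastic co-culture, both inside the range of the fibroblastic arrays. Nid1 read 10.37 and 11.06, below every fibroblastic array, and was called lower on both (-2.31, SE 0.25, limma adjusted p = 0.00105, and -1.62, SE 0.25, limma adjusted p = 0.00683). With the mean of its probe sets Nid1 was not called on the array labelled fibroblastic co-culture (-0.73, limma adjusted p = 0.210). With its second probe set Nid1 was called on neither array. The differences were then -0.02 (limma adjusted p = 0.984) on the array labelled epithelial co-culture and 0.15 (0.890) on the other. Lamb2 read 10.13 and 10.52, inside the fibroblastic range. Lamb1 read 11.19 and 11.30, below every fibroblastic array, and Lamc1 read 11.32 and 11.79, of which only the second was inside the fibroblastic range. None of Lamb1, Lamb2, Lamc1 and Nid2 was called different from the fibroblastic line on either array, with 95% intervals on the array labelled fibroblastic co-culture of -1.25 to 0.09 for Lamb1, -0.50 to 0.86 for Lamb2, -1.34 to 0.68 for Lamc1 and -1.80 to 0.94 for Nid2.

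Against the epithelial line, the array labelled epithelial co-culture was called higher for 5 of the 9 genes and lower for 0, against 4.87% and 2.37% of all genes. The differences were 6.51 for Nid1 (SE 0.26, limma adjusted p = 8.61e-06), 4.06 for Nid2 (SE 0.61, limma adjusted p = 0.00651), 2.49 for Col4a5 (SE 0.43, limma adjusted p = 0.0121), 1.85 for Lamc1 (SE 0.45, limma adjusted p = 0.0488) and 1.45 for Lama4 (SE 0.24, limma adjusted p = 0.0104). Col4a1 (1.47, 95% interval 0.26 to 2.68, limma adjusted p = 0.142) and Col4a2 (-0.57, 95% interval -1.27 to 0.13, limma adjusted p = 0.326) were not called. Lama4 was not called with the mean of its probe sets (0.86, limma adjusted p = 0.140) or with the second one (0.27, limma adjusted p = 0.865). Nid1 was not called with its second probe set (0.19, limma adjusted p = 0.871). The Lamc1 call was lost without any one epithelial array and without fibroblastic array 3 or 4, with limma adjusted p of up to 0.110. The second Col4a1 probe set placed both co-culture arrays, at 4.57 and 5.30, within or below the range of the epithelial arrays. The array labelled fibroblastic co-culture was called higher than the epithelial line for the same 5 genes and lower for 0, against 5.44% and 2.2% of all genes, with 7.20 for Nid1 (SE 0.26, limma adjusted p = 5.42e-06) and 3.37 for Col4a5 (SE 0.43, limma adjusted p = 0.00235). There too the Lama4 call was lost with the mean of its probe sets (0.91, limma adjusted p = 0.124) and with the second one (0.05, limma adjusted p = 0.981). The Nid1 call was lost there with its second probe set (0.36, limma adjusted p = 0.707). The same 3 epithelial arrays serve both comparisons. The contrast of both labels, epithelial minus fibroblastic response to co-culture, was called higher for 6 of the 9 genes, against 4.66% of all genes, all but Lamb1, Lamb2 and Lamc1. By its construction this contrast is the fibroblastic minus epithelial gap of the lines plus the difference of the 2 co-culture arrays, whose median over the 9 genes was 0.33 in size. It adds no separate test of a response: the contrast was 8.13 for Nid1, beside a gap of -8.81 for epithelial minus fibroblastic line.

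Whether such falls are usual for genes of the fibroblastic line was described with 531 genes at least 8-fold higher in the fibroblastic than in the epithelial line, a comparison chosen after the values were seen. Of the 9, this holds Col4a1, Col4a2, Col4a5, Lama4, Nid1 and Nid2, leaving 525 others. Relative to the fibroblastic line, the median of these others was -1.60 on the array labelled epithelial co-culture (quartiles -2.84 and -0.85) and -1.31 on the array labelled fibroblastic co-culture (quartiles -2.47 and -0.57). On the array labelled fibroblastic co-culture, 8.00% of the 525 were lower than Col4a1, 8.76% lower than Lama4, 11.4% lower than Col4a2 and 20.4% lower than Col4a5. Of the same genes, 42.5% were lower than Nid1 and 78.7% lower than Nid2. On the array labelled epithelial co-culture the shares were 9.71% for Col4a1, 9.33% for Lama4, 14.1% for Col4a2, 12.8% for Col4a5, 35.0% for Nid1 and 85.5% for Nid2. The sum of 16 fibroblast markers read 15.50 on the array labelled epithelial and 15.62 on the array labelled fibroblastic co-culture, against 16.60 to 16.89 in the fibroblastic line on the log2 scale. The pericyte and vascular smooth muscle markers read 11.36 and 11.58 on the same arrays, against 13.10 to 13.90 in the fibroblastic line. The part of the cell mixture in these differences was not tested.

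**Figure D3:**
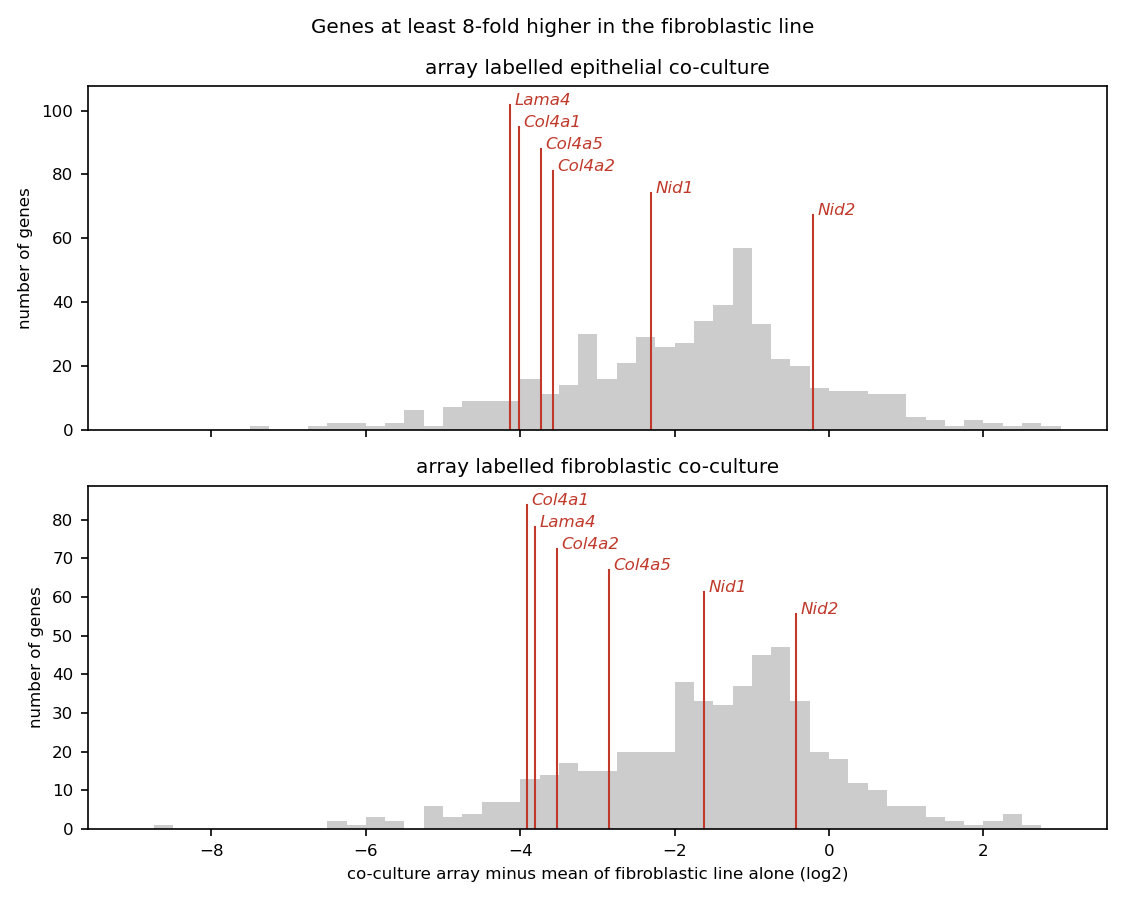
Number of genes (y axis) by the log2 difference of a co-culture array from the mean of the fibroblastic line (x axis), over the 525 other genes at least 8-fold higher in the fibroblastic than in the epithelial line; the upper panel is the array labelled epithelial co-culture, the lower the array labelled fibroblastic co-culture, and vertical lines mark the 6 basement membrane genes. Col4a1 lies at -4.02 and -3.92 in these panels, at the left of the genes, while Nid2 lies at -0.21 and -0.43, to the right of most.

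The within-array difference of paired family members compares how a pair shifts without a scaling step, and says nothing of which transcript is more abundant, since probes differ. Col4a1 minus Col4a2 was 1.62, 1.75, 1.81 and 2.0 in the tumours, against -1.36, -1.21 and -0.51 on the epithelial arrays and 1.73, 1.05, 1.74 and 1.32 on the fibroblastic arrays. On the arrays labelled epithelial and fibroblastic co-culture it was 1.02 and 1.07. Both values use the brighter Col4a1 probe set. The second one read 4.57 and 5.30 on those arrays, where Col4a2 read 5.63 and 5.68. With it the sign of the difference would reverse on both co-culture arrays. The tumours and the fibroblastic line overlapped, and both lay above the epithelial line. Nid1 minus Nid2 was 2.61, 2.98, 3.01 and 2.86 in the tumours, against -4.73, -3.16 and -3.10 on the epithelial arrays and 1.00, 0.62, 1.70 and 0.15 on the fibroblastic arrays. It was -1.22 and -0.32 on those co-culture arrays, below every fibroblastic and above every epithelial array, and all groups were separate. These values use the brighter Nid1 probe set, near the low end of the arrays in the epithelial line. The second one averaged 8.11 in the tumours, 7.53 on epithelial and 7.74 on fibroblastic arrays, where Nid2 averaged 8.00, 7.53 and 11.81. With it the difference would be lower in the fibroblastic than in the epithelial line. Lamb1 minus Lamb2 averaged 2.14 ± 0.29 (SD, n = 4) in the tumours, against 0.63 ± 0.33 (SD, n = 3) on epithelial and 1.54 ± 0.14 (SD, n = 4) on fibroblastic arrays. It was 1.05 and 0.78 on the arrays labelled epithelial and fibroblastic co-culture. Of 9 two-sided exact permutation tests, the tumour to fibroblastic difference gave p = 0.0286, the smallest possible with 4 against 4 arrays, for Nid1 minus Nid2 (1.99) and Lamb1 minus Lamb2 (0.60), and p = 0.143 for Col4a1 minus Col4a2 (0.34). The 6 tests against or of the epithelial line each gave an exact p of 0.0571, the smallest possible with 4 against 3. Adjusted over the 9 exact tests by the method of Benjamini and Hochberg, 8 gave 0.0643 and 1 gave 0.143, so none passed.

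**Figure D4:**
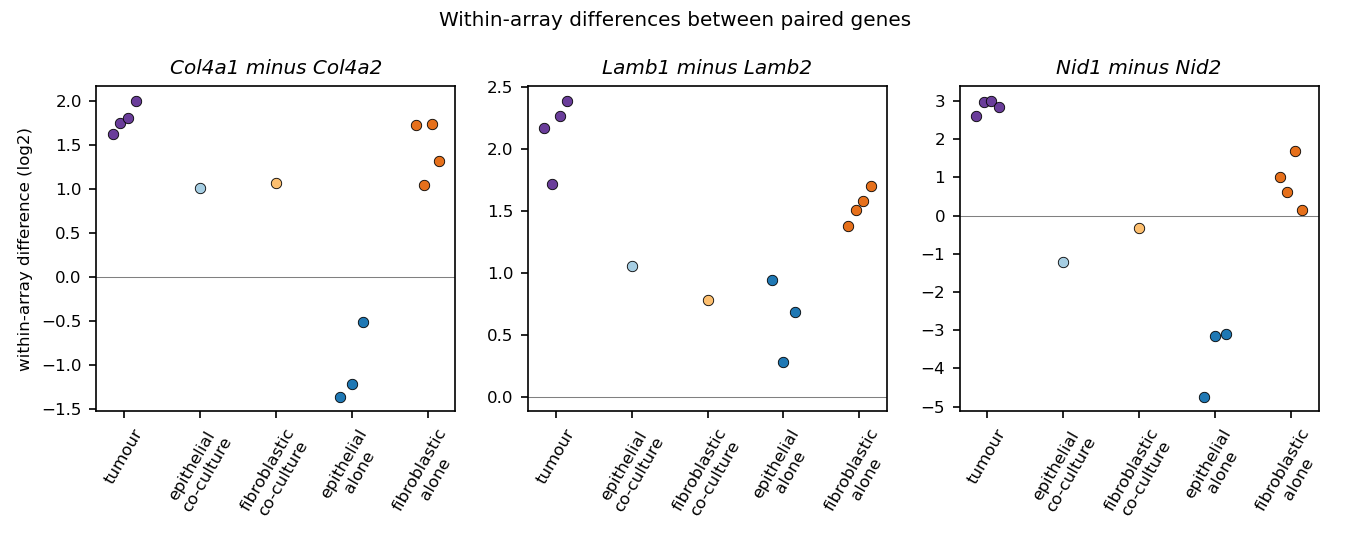
Within-array log2 difference (y axis, one scale per panel) of Col4a1 minus Col4a2, Lamb1 minus Lamb2 and Nid1 minus Nid2 on each array, by group; points are arrays. Nid1 minus Nid2, with the brighter Nid1 probe set, runs between 2.61 and 3.01 in the tumours. It lies below 0 on every epithelial array and on both co-culture arrays.

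Of 24 further basement membrane components measured (30 listed), 5 were called higher and 5 lower in the epithelial than in the fibroblastic line, with a median of -0.02. Of all genes, 20.9% were called higher and 16.6% lower in that comparison. Lamb3, a chain of the epithelial laminin of hemidesmosomes, was higher in epithelial (10.52 ± 0.47, SD, n = 3) than in fibroblastic cells (4.40 ± 0.36, SD, n = 4), by 6.13 (limma adjusted p = 1.47e-06). Lama3, another chain of that laminin, was higher by 2.48 (not called without epithelial array 2, limma adjusted p = 0.0507) and Fbln1 by 1.36, while Sparc, a secreted collagen-binding protein (-7.37, limma adjusted p = 8.66e-08), and the related matrix proteins Smoc2 (-6.50) and Smoc1 (-3.63) were lower. Set against the epithelial line, 8 of the 24 were higher and 4 lower in the tumours, as were 18.9% and 33.2% of all genes. Sparc (5.94), Smoc2 (3.55) and Col15a1 (3.20), a collagen of the vascular basement membrane zone, were higher, and Lama5, a widespread epithelial and vascular laminin chain (-2.10), Agrn, a heparan sulfate proteoglycan (-2.0), and Lamb3 (-1.57) were lower. Set against the fibroblastic line, 7 were higher and 7 lower, as were 27.3% and 33.5% of all genes, with Lamb3 (4.56), Efemp1, a fibulin (1.14), and Lama2, the laminin chain of muscle and nerve (1.03), higher, and Smoc2 (-2.96), Hmcn1, which encodes hemicentin (-2.55), and Smoc1 (-2.16) lower. The array labelled epithelial co-culture had 6 of the 24 above and 0 below the epithelial line (4.87% and 2.37% of all genes), Smoc2 (6.77) and Sparc (6.57) among them. The array labelled fibroblastic co-culture had 3 above the fibroblastic line, Lamb3 (6.18), Fbln1 (5.19) and Col7a1, the anchoring fibril collagen (1.71), and 1 below it, Smoc1 (-2.21), against 4.78% and 3.63% of all genes.

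**Figure D5:**
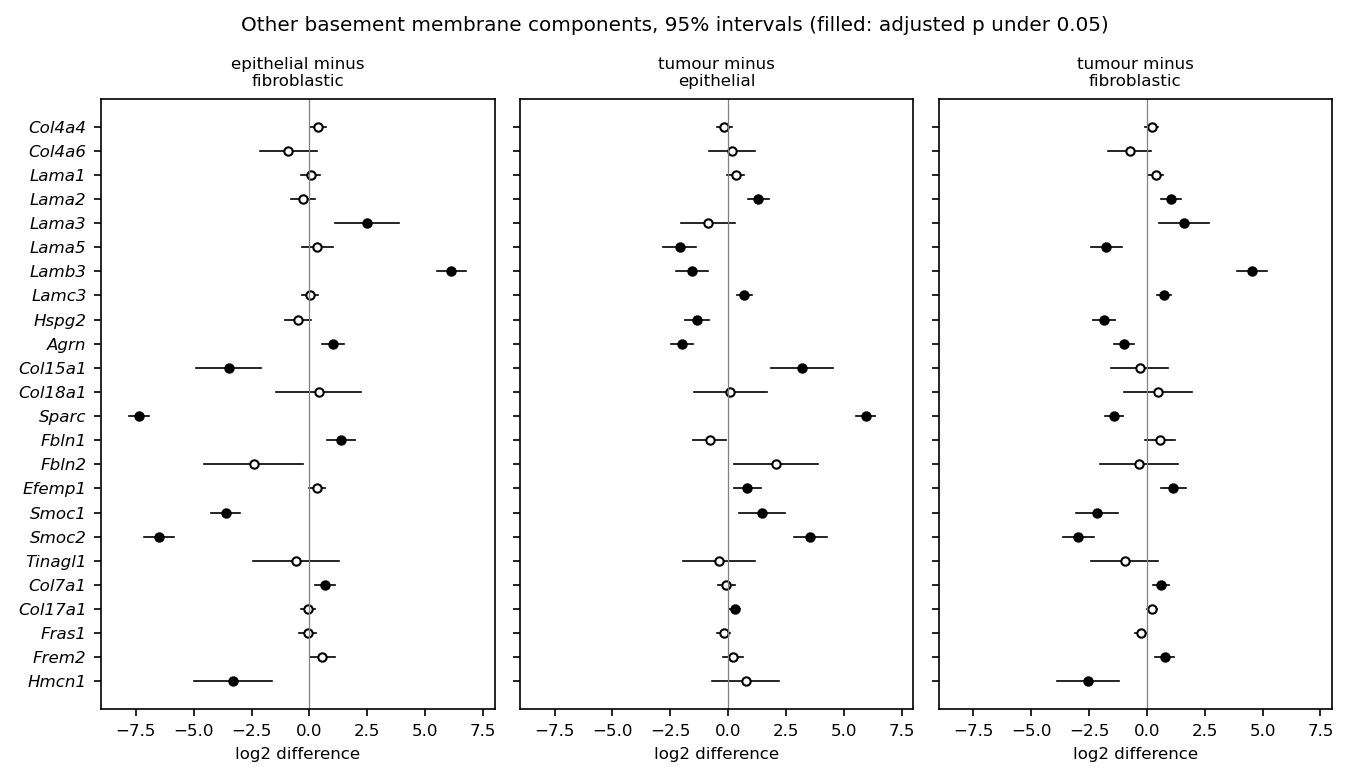
Log2 difference (x axis, bars are 95% intervals) of the 24 other basement membrane components (rows) in epithelial minus fibroblastic line, tumour minus epithelial line and tumour minus fibroblastic line; filled points have an adjusted p under 0.05. Lamb3 lies farthest right (6.13) and Sparc farthest left (-7.37) in epithelial minus fibroblastic line.

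Fbln1 and Fbln2, fibulins that bind nidogen and laminin, were high on the co-culture arrays. Fbln1 read 8.86 on the array labelled epithelial co-culture and 9.95 on the array labelled fibroblastic co-culture, against 6.11 ± 0.60 (SD, n = 3) for epithelial and 4.75 ± 0.12 (SD, n = 4) for fibroblastic cells alone. Fbln2 read 12.71 and 12.56 on the same arrays, against 6.07 ± 0.19 (SD, n = 3) and 8.47 ± 1.95 (SD, n = 4) in those cells. Both co-culture arrays thus exceeded every array of both lines for both fibulins. Col4a2 lay below every array of both lines, but was not called against the epithelial line on either co-culture array. Such positions of single arrays carry little weight, and their share of all genes is not given here. The fibulins were also picked after their values were seen. Fbln1 was called higher than the fibroblastic line on the array labelled fibroblastic co-culture (5.19), and Fbln2 higher than the epithelial line on the array labelled epithelial co-culture (6.64). That Fbln2 call was lost without any one epithelial array (limma adjusted p of up to 0.0722). Against the fibroblastic line, whose arrays ran from 6.57 to 10.18, Fbln2 was not called on the array labelled fibroblastic co-culture.

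The machinery that folds, modifies and cross-links collagen was low in the epithelial line. Of 21 genes measured (23 listed), 18 were called lower and 0 higher in the epithelial than in the fibroblastic line, with a median of -1.61, against 16.6% and 20.9% of all genes. Among those lower were Lox, which starts collagen cross-links (-7.68), Serpinh1, the collagen chaperone (-7.21, limma adjusted p = 8.07e-07), and Plod2, a lysyl hydroxylase (-6.99). Set against the epithelial line, 13 were higher and 0 lower in the tumours (18.9% and 33.2% of all genes), led by Serpinh1 (6.55), Lox (6.05) and Plod2 (5.45). Set against the fibroblastic line, 2 were higher and 16 lower (27.3% and 33.5% of all genes): Tgm2, a transglutaminase (2.12), and Mia2, which acts in collagen export (0.71), were higher, and P3h3 (-3.78) and P4ha3 (-3.70), prolyl hydroxylases, and Loxl2, a cross-linking enzyme (-2.28), were the most lowered. Pxdn, the peroxidase that forms sulfilimine cross-links of collagen IV, read 11.90 and 11.39 on the arrays labelled epithelial and fibroblastic co-culture, against 4.59 ± 0.39 (SD, n = 3) for epithelial and 11.51 ± 0.21 (SD, n = 4) for fibroblastic cells alone. The array labelled epithelial co-culture had 12 of the 21 above and 0 below the epithelial line (4.87% and 2.37% of all genes), led by Pxdn (7.31), Lox (7.15) and Plod2 (7.09). The array labelled fibroblastic co-culture had 1 above the fibroblastic line, P4ha2 (1.81), and 2 below it, P3h3 (-1.75) and Colgalt2 (-1.40), against 4.78% and 3.63% of all genes. There Pxdn was at -0.12 (limma adjusted p = 0.887), Serpinh1 at -0.27 (0.783), Plod2 at -0.12 (0.919) and Lox at -0.10 (0.971), none called, beside the called -3.92 of Col4a1 and -3.53 of Col4a2 on that array.

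Of 17 measured receptors for basement membrane proteins (18 listed), 6 were called higher and 7 lower in the epithelial than in the fibroblastic line, against 20.9% and 16.6% of all genes. Itgb4, the hemidesmosome integrin chain that binds laminin, was higher by 5.35 (limma adjusted p = 9.47e-07), Itga3, an alpha chain of laminin-binding integrins, by 2.63 and Sdc1, a cell-surface proteoglycan, by 2.58. Ddr2, a collagen receptor kinase (-6.32, limma adjusted p = 4.50e-06), Itga1, a collagen IV-binding integrin chain (-5.73), and Gpc1, a glypican (-5.56), were lower. Set against the epithelial line, 5 receptors were higher and 6 lower in the tumours, against 18.9% and 33.2% of all genes. Itga1 (3.94), Ddr2 (2.66) and Gpc1 (1.99) were higher, and Plec, which links integrins to the cytoskeleton (-1.44), Itga3 (-1.42) and Dag1, dystroglycan (-1.35), were lower. Set against the fibroblastic line, 5 were higher and 10 lower, against 27.3% and 33.5% of all genes, with Itgb4 (4.46), Sdc1 (2.53) and Bcam (1.93) higher, and Ddr2 (-3.67), Gpc1 (-3.56) and Dst, a hemidesmosome linker (-2.99), lower. Itga1 read 8.25 and 7.86 on the arrays labelled epithelial and fibroblastic co-culture, against 4.73 ± 0.29 (SD, n = 3) for epithelial and 10.46 ± 0.74 (SD, n = 4) for fibroblastic cells alone. Its fall against the fibroblastic line on the array labelled fibroblastic co-culture was -2.60 (limma adjusted p = 0.0281), beside -2.34 for Ddr2 (0.0297) and -3.12 for Itga8, an integrin chain of smooth muscle and other mesenchymal cells. The Ddr2 call was lost without epithelial array 1 or 3 or fibroblastic array 4 (limma adjusted p of up to 0.0618), and the Itga1 call without fibroblastic array 3. The array labelled epithelial co-culture had 5 receptors above and 0 below the epithelial line (4.87% and 2.37% of all genes), with Gpc1 at 4.12, Ddr2 at 3.72 and Itga1 at 3.52. The array labelled fibroblastic co-culture had 2 above the fibroblastic line, Itgb4 (4.50) and Itga3 (1.79), and 5 below it, against 4.78% and 3.63% of all genes.

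Likeness of pattern was measured as the root mean square difference of log2 values over the 13 arrays, each gene centred on its own mean. By this measure the nearest of all genes to Col4a1 were Npl (0.42), Rgs16 (0.74) and S1pr1 (0.75), with Lama4 25th and Col4a2 35th. Those nearest to Col4a2 were Kcne4 (0.45), Itga8 (0.51) and Zfp518b (0.55). Col4a5 lay nearest to Mmp16 (0.43), Nbea (0.54) and Mex3b (0.57). Lama4 lay nearest to Fry (0.36), C1qtnf2 (0.49) and Gpr176 (0.50). Among the other laminin chains, Lamb1 was nearest to Kiaa0040 (0.22), Tatdn3 (0.25) and Micall1 (0.25), and Lamb2 to Frmd6 (0.33), Igf1r (0.34) and Lrsam1 (0.37). Lamc1 was nearest to Itgav (0.27), an integrin alpha chain, Meis2 (0.29) and Cep170 (0.32), with Lamb1 45th. Nid1 was nearest to Igfbp7 (0.37) and to the fibrillar collagen genes Col1a1 (0.53) and Col5a2 (0.57). Nid2 was nearest to Uggt2 (0.41), Adam33 (0.49) and Ahnak2 (0.51), with Lamc1 95th and Nid1 at rank 12494. The arrays share their normalization, and the measure has no test.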

How the data were processed

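Total RNA was extracted with Trizol and labelled with biotin for single-colour Affymetrix rat arrays, per the labels' protocols, and the deposited log2 values were computed by the authors with RMA, per the submitters' processing notes. Which RMA version was used, and on which arrays jointly, is not stated there. The deposited values span 2.94 to 14.69, which is why they were taken as log2. Of 31099 probe sets, 57 controls were left out, and 20826 named a single gene, 436 several and 9780 none, which left 14217 genes, 4525 of them with several probe sets. Nothing was normalized again. Microarray values carry no read depth, and the number of arrays limits their precision.

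Tests between groups used limma 3.58.1 under R 4.3.3 (group means, moderated statistics without trend, two-sided, Benjamini-Hochberg adjustment over all genes). A fit of 9 arrays held the lines and co-cultures, and a fit of 11 held the tumours and lines. Within-array pairs were tested by exact permutation with SciPy 1.17.1. The limma step was tested on simulated data. The 9 genes and the gene lists were chosen with earlier results of these data known. From the lists of components, receptors and assembly genes, the text names up to 3 called genes each way with the largest differences. Schwann cell and other marker lists came from general knowledge. Any further named values, such as the fibulins in co-culture, were chosen after they were seen. Alternatives were a single fit of 13 arrays, quantile normalization, median centring, the lowest expressed 25% of genes left out, the mean of a gene's probe sets, each further probe set, a trend with robust moderation, a replicate block and each array left out. Added after the data were seen were tumour 2 as the only tumour, fibroblastic arrays 2 and 4 left out, and co-culture arrays against the other line.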

Additional observations from a re-analysis of the deposited data

Results flagged for a closer look

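Of 90 checks for a sample far from its group in groups of 4 arrays, of which chance flags about 1 in 20, 4 stood out. Col4a1 read 9.17 in tumour 2, against 9.94 to 10.003 in the other tumours. Lamb3 read 4.94 on fibroblastic array 4, against 4.18 to 4.28 on the others, and Smoc2 read 9.98 on fibroblastic array 3, against 10.94 to 10.97. Bcam, a laminin-binding surface protein, read 7.70 in tumour 1, against 8.21 to 8.29 in the other tumours.

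The contrast of both co-culture labels, each co-culture array minus the line of its label, was called by limma for 6 of the 9 basement membrane genes (each with a positive difference, as for 4.66% of all genes). The difference, epithelial minus fibroblastic response, was 8.13 for Nid1 (adjusted p = 2.03e-05), 5.39 for Col4a1 (0.00300), 5.35 for Col4a5 (0.00109), 5.25 for Lama4 (7.37e-05), 4.50 for Nid2 (0.0152) and 2.95 for Col4a2 (0.00396). Both arrays held both cell types, and over the 9 genes their values differed from each other by a median of 0.33. With 1 array per label so alike, the contrast is close to the gap between the lines (epithelial minus fibroblastic -8.81 for Nid1 and -4.28 for Nid2) and is no separate test of a response. The part of the cell mixture in it was not tested.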

How the results depend on the processing

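Each result was recomputed under the alternatives. Directions reversed as follows. Lamc1 in tumours minus the epithelial line was 0.34 with the mean of probe sets and 1.17 with the second probe set. Nid1 in tumours minus the fibroblastic line was 0.37 with its second probe set, and 0.15 on the array labelled fibroblastic co-culture minus that line. Col4a1 on the array labelled epithelial co-culture minus the epithelial line was -0.31 with its second probe set. Lamc1 on the array labelled fibroblastic co-culture minus the fibroblastic line was 0.26 with the mean of probe sets, 0.13 without fibroblastic arrays 2 and 4 and 0.85 with the second probe set, and 0.47 on the array labelled epithelial co-culture with the second probe set. Nid2 on that array minus the fibroblastic line was 0.07 without fibroblastic arrays 2 and 4. With tumour 2 as the only tumour, 1958 genes were called against the epithelial line (7407 with all tumours) and 3912 against the fibroblastic line (8652). A single fit of 13 arrays called 1743 genes on the array labelled epithelial co-culture (1029 otherwise) and 1651 on the array labelled fibroblastic co-culture (1086 otherwise) against the epithelial line. Below both lines was 1 of the 9 genes, not 2, under quantile normalization, median centring, without epithelial array 1 and with tumour 2 only. Without single arrays, the tumour minus fibroblastic difference ran between 0.51 and 0.73 for Lamb1 minus Lamb2 and between 1.75 and 2.27 for Nid1 minus Nid2, with exact p no smaller than 0.0571, the smallest possible. Apart from the 10 reversals above, 38 values of the 9 genes kept their direction but lost a call over all settings, and 12 gained one. Among list genes 19 values lost a call, 8 of them with tumour 2 only: Col15a1, Lamb3, Plec and Itga3 against the epithelial line and Lama2, Hmcn1, Tgm2 and Mia2 against the fibroblastic line. Smoc1 on the array labelled fibroblastic co-culture lost its call in the single fit (adjusted p = 0.0528) and with the mean of probe sets (0.0883). Settings that leave out arrays also leave fewer arrays to the fit; otherwise the cause of these changes was not tested.

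The sample titles number the replicates without saying whether the numbers pair samples, and the main fits treated them as unpaired. The deviations of same-numbered arrays correlated between -0.148 and 0.143, over 0.1 in 3 of 10 pairs, and 9 of 20 comparisons ranked an array's own number first. With so few arrays and no test of how many chance would rank first, this check cannot exclude pairing. With the replicate block, 4252 genes were called between the lines (5324 without), 6638 in tumours against the epithelial line (7407) and 8405 against the fibroblastic line (8652). The block changed a single call among the genes named, Lama3 between the lines (2.28, limma adjusted p = 0.0648). Co-culture arrays carry no number. The few arrays and the dim second probe sets limit what can be told of small differences.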
